A study of Rattus norvegicus with 16 samples.

Results

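The genes described here are 39 genes of the cell cycle and of DNA replication, named in a list and looked up by symbol among the 35849 genes of the deposited rat kidney table. Of these, 37 had a row, namely 3 of entry into S phase (Ccnd1, Ccne1, Ccne2), 12 of DNA replication (Mcm2 to Mcm7, Gins2, Pcna, Rrm1, Rrm2, Tk1, Tyms) and 22 of mitosis (Aurka, Aurkb, Birc5, Bub1, Bub1b, Ccna2, Ccnb1, Cdc20, Cdca8, Cdk1, Cenpf, Foxm1, Hmmr, Kif11, Kif20a, Mki67, Nusap1, Plk1, Prc1, Top2a, Tpx2, Ube2c). E2f1 and Ccnb2 were not analysed here. RNA was sequenced from the renal tissue of 16 male Sprague Dawley rats, 6 to 8 weeks old at the start, in 4 groups of 4, named normal, DN and, by dose, SIN (20 mg/kg) or SIN (40 mg/kg). The normal rats received citrate buffer and a normal diet. The other 3 groups shared an injection of streptozotocin (STZ, a toxin of the insulin-producing beta cell) at 45 mg/kg and a diet rich in glucose and fat, and were kept only if their blood glucose rose, so that drug, diet and selection cannot be told apart in the DN over normal comparison. DN stands for diabetic nephropathy. By the authors' abstract the DN rats received vehicle by gavage every day for 8 weeks, which is not stated for the normal rats. The SIN groups were given sinomenine, a plant alkaloid, by gavage every day for 8 weeks at 20 or 40 mg/kg. The records number the libraries within a group, and each is taken here as 1 rat. If some share an animal, the p-values measure technical spread only.

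A cell commits itself to division in G1, when D-type cyclins rise and their kinases release E2F factors from the retinoblastoma family. E2F then drives the genes that copy DNA, among them the MCM helicase and the enzymes that make nucleotides. Genes of mitosis are held back by the DREAM complex in resting cells, and come on later, in G2, under B-MYB–FOXM1 complexes. Both reach promoters through a CHR element, and CCAAT boxes that bind NF-Y stand beside it. The adult kidney divides little, and tubule cells re-enter the cycle after injury. The tissue was checked by 10 tubule and podocyte markers, which were all counted in every rat, none below 22.6 CPM. CPM here are estimated counts scaled to a common library size by the TMM method over the 16 rats. Totals ran from 19616312 to 25217030 estimated counts a rat.

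The promoters of the 2 subsets differed in the letters they held, and 4 are shown because their genes had the smallest p of their subset in DN over normal among those with an entry and a match. RefSeq sequences (build GRCr8), reaching from 250 bases before to 50 bases after the annotated start, were on hand for 28 of the 37 genes. Capitals mark matches, on either strand, to the CHR letters TTTGAA, to CCAAT, or to an E2F site written as TTTGGCGC, TTTGCCGC, TTTCGCGC or TTTCCCGC, and neighbouring E2F matches on opposite strands may overlap. Each is printed 5′ to 3′ in the direction of its gene. Top2a (chr10:84473044-84473343, minus strand) and Kif11 (chr1:244536617-244536916, plus strand) stand for mitosis. Mcm2 (chr4:122918045-122918344, minus strand) and Mcm5 (chr19:13488563-13488862, plus strand) stand for replication.
Top2a: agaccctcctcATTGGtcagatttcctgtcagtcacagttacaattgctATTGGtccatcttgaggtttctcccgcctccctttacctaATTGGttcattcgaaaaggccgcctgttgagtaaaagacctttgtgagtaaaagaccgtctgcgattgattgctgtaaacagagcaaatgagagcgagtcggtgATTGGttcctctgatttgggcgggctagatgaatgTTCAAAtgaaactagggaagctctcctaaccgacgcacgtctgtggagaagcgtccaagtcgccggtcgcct
Kif11: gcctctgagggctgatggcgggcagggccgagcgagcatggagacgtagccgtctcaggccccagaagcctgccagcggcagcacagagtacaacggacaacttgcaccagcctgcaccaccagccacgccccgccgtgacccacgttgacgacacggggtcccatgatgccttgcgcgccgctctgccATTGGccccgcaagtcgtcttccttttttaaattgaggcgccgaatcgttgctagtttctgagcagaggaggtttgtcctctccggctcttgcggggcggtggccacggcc
Mcm2: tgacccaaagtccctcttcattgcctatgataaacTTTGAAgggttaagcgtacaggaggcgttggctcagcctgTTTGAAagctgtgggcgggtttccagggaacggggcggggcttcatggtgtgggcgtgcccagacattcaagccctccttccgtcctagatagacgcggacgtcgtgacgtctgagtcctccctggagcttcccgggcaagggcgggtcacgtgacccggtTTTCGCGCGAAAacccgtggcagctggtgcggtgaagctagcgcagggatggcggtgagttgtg
Mcm5: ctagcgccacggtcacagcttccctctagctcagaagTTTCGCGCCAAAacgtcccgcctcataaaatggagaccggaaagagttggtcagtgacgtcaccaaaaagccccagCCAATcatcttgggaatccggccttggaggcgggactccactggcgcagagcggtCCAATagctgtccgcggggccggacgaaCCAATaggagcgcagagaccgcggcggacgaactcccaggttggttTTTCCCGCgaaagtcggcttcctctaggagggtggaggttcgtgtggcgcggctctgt
In Top2a the single CHR match began 22 bases before the start, downstream of 4 CCAAT boxes. Kif11 held a single CCAAT box and no CHR letters. In Mcm5 an E2F match began 8 bases before the start, and in Mcm2 a pair of overlapping E2F matches began at 14 and 10 bases before it. Mcm2 also held 2 CHR matches, at 215 and 175 bases before the start, and no CCAAT box. It was the 1 replication promoter with CHR letters.

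By subset, CHR letters stood in 12 of 17 mitosis promoters (70.6%), against 1 of 10 replication promoters (10%) and 18.3% of all 33469 promoters in the table. An E2F site was the reverse, found in 6 of 10 replication promoters (60%), in 1 of 17 mitosis promoters (5.88%) and in 2.14% of all. CCAAT boxes were common in both, in 82.4% of the mitosis and 70% of the replication promoters, against 37.5% of all. Matches were also counted in lists of further genes of each phase, in which CHR letters stood in 65.6% of 32 mitosis promoters and 12% of 25 replication promoters, and E2F sites in 0% and 48.0% of them. These are letter matches in 300 bases, and do not show that a factor bound.

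**Figure D1:**
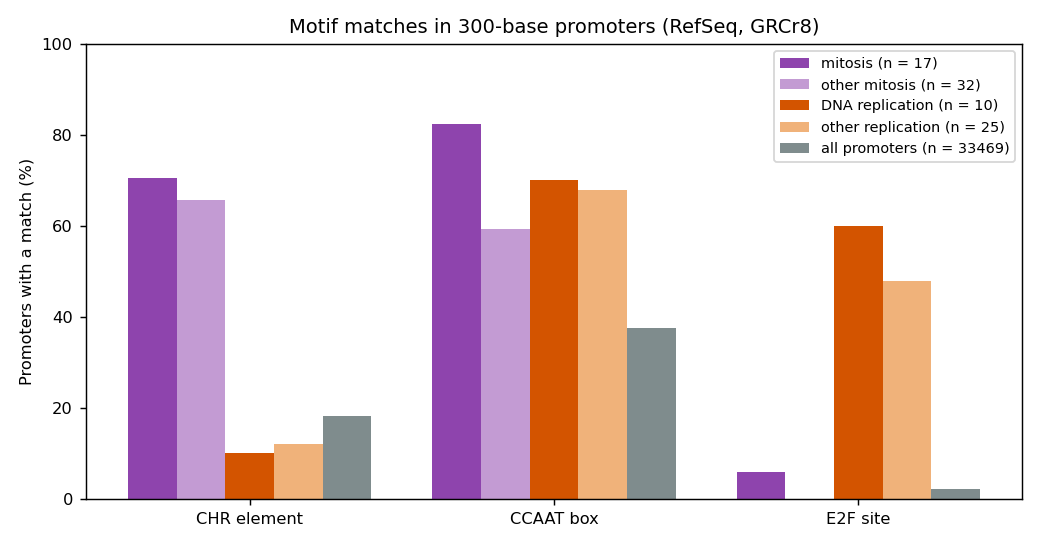
Percentage of promoters (y axis) with at least 1 match to each motif (x axis), by gene list, with the number of promoters in the key. CHR letters reached 70.6% in the mitosis genes and 10% in the replication genes, and E2F sites 5.88% and 60%.

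Levels in the normal kidney overlapped between the subsets. Before scaling to length, the replication genes Rrm2 and Mcm5 averaged 0.874 and 2.31 CPM in the normal group, below the mitosis gene Cdc20 (5.73 CPM). Scaled to gene length as the table gives it, Pcna (the sliding clamp of the DNA polymerases, 34.6 CPM per kb) and Ccnd1 (cyclin D1, 34.1) led the mean levels of the normal group, followed by Kif11 (14.1) and Rrm1 (the large subunit of ribonucleotide reductase, 11.9). Apart from Kif11, the mitosis genes lay between 0.0359 CPM per kb (Cenpf, a kinetochore protein) and 3.10 (Cdc20, an activator of the anaphase-promoting complex). Many mitosis genes therefore rested on few counts, such as 8 to 12 a rat for Top2a in the DN group and 0 to 5 for Bub1b. Kif11, the kinesin that pushes the spindle poles apart, was 14.1 against 0.397 CPM per kb for Top2a. In RefSeq it overlaps Ide and 2 long noncoding RNA genes, and since the counting is not stated to use strand, reads of such partners cannot be told apart. In all, 9 of the 37 genes overlap a protein-coding gene.

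The DN over normal comparison asks how the diabetic kidney differed without SIN. Of 19 mitosis genes tested 5 fell in the DN group, while cyclin D1 and 1 of 12 replication genes rose. Of all 33 genes tested, 7 passed an adjusted p under 0.05 by edgeR's quasi-likelihood test. Cyclin D1 (Ccnd1) and thymidine kinase (Tk1) rose, and 5 mitosis genes fell, Top2a, Kif11, Bub1b, Mki67 and Hmmr. Among all 15775 genes tested, 8.74% were called higher and 10.8% lower. The 2 of 33 higher is below that share. The 5 lower are not read against theirs, since Top2a, Bub1b and Hmmr passed the count filter only through the normal group. Of the mitosis genes 17 of 19 had a negative log2 fold change, with a median of -0.74 against 0.002 over all genes tested. Such passage through the normal group alone favours lower values, and over all 22 with no filter the median was -0.75. Among the 11 above the count minimum in all 8 rats it was -0.18, and these are the more abundant genes. Below the count minimum and not tested were Ccna2, Cenpf and Ube2c of mitosis, which ranged from 0.140 to 1.35 CPM in the normal and from 0 to 0.447 CPM in the DN rats, and Ccne1 (0.178 to 0.351 and 0.310 to 0.476 CPM). In bulk tissue, fewer dividing cells and less RNA per cell cannot be told apart.

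Top2a encodes topoisomerase IIα, which untangles chromosomes before they separate. It stood at 2.002, 1.74, 2.37 and 2.76 CPM in normal replicates 1 to 4 and at 0.354, 0.607, 0.447 and 0.476 CPM in DN replicates 1 to 4. Every DN rat lay below every normal rat, and the log2 fold change was -2.22 (SE 0.30, edgeR adjusted p = 0.00421). Mki67, the proliferation antigen Ki-67, coats mitotic chromosomes. Its values were 1.49, 2.61, 1.89 and 2.45 CPM in the normal rats and 0.398, 1.06, 1.03 and 1.05 CPM in the DN rats, again without overlap (log2 fold change -1.25, SE 0.36, edgeR adjusted p = 0.0401). Kif11 fell from 70.2, 58.1, 65.5 and 72.1 CPM to 25.7, 37.8, 52.03 and 41.8 CPM, a log2 change of -0.75 (SE 0.19, edgeR adjusted p = 0.0253). Its neighbour Ide, which degrades insulin, was 104, 109.5, 95.6 and 106 CPM in the normal and 87.9, 90.5, 95.5 and 91.2 CPM in the DN rats, a log2 fold change of -0.18 (edgeR adjusted p = 0.12). Both were lower in all DN rats, Kif11 by the larger fold, and the difference between them was not tested.

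Bub1b encodes BubR1, a kinase-like protein of the spindle checkpoint. It was 0.559, 0.726, 0.439 and 0.756 CPM in the normal rats and 0.221, 0.101, 0.134 and 0 CPM in the DN rats, with a log2 fold change of -2.36 (SE 0.61, edgeR adjusted p = 0.0288). These values are 10 to 17 counts against 0 to 5, and the size of the change is correspondingly loose. Hmmr, a spindle protein that also binds hyaluronan, was 0.791, 0.726, 0.7901 and 1.69 CPM in the normal and 0.398, 0.253, 0.447 and 0.429 CPM in the DN rats (log2 fold change -1.37, SE 0.41, edgeR adjusted p = 0.0435). Normal replicate 4 was well above the others of its group in Hmmr, but those also exceeded every DN rat. Kif20a (a kinesin of cytokinesis), Ccnb1 (cyclin B1), Bub1 (a checkpoint kinase) and Plk1 (polo-like kinase) were also lower in all 4 DN rats, but their edgeR adjusted p ran from 0.102 to 0.157. The other mitosis genes tested (Aurka, Aurkb, Cdc20, Cdca8, Cdk1, Foxm1, Nusap1, Prc1, Tpx2) had log2 fold changes from -1.21 to 0.23 and did not pass. Birc5, which encodes survivin, a subunit of the chromosomal passenger complex, went the other way. It stood at 2.23, 1.74, 1.62 and 2.45 CPM in the normal and 3.54, 2.83, 3.31 and 2.48 CPM in the DN rats, without overlap, at a log2 fold change of 0.60 that did not pass (edgeR adjusted p = 0.0966).

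**Figure D2:**
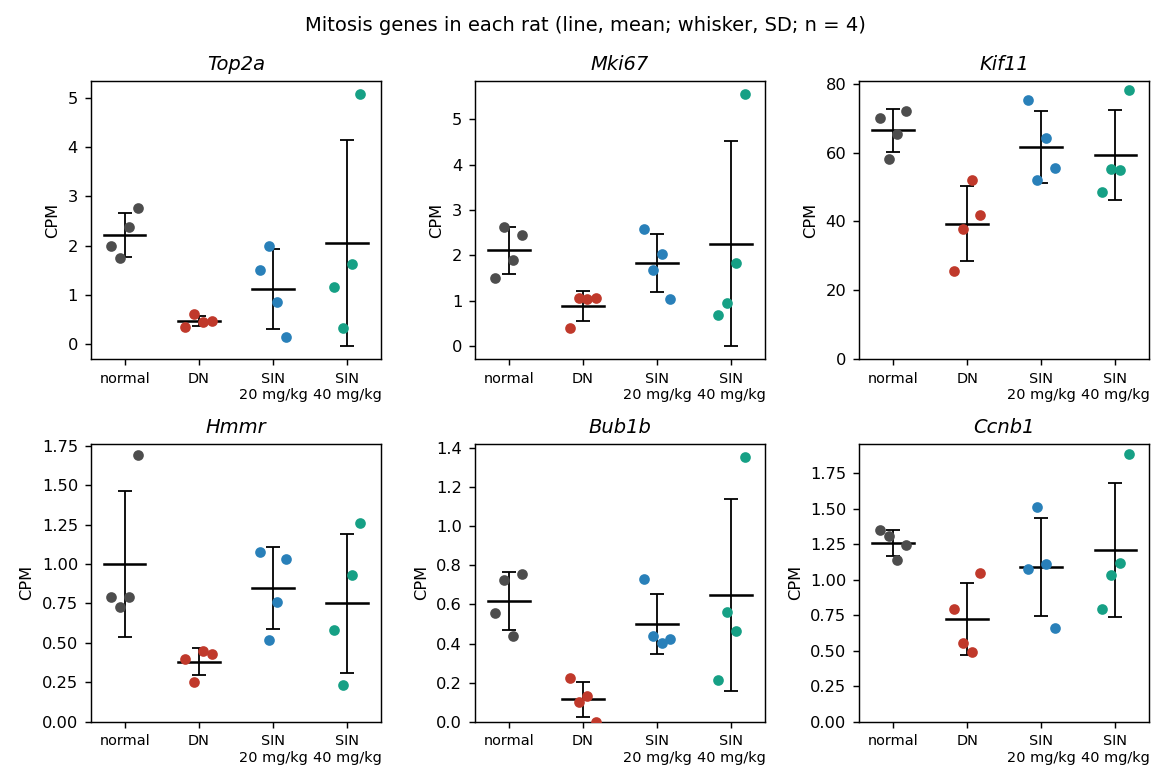
CPM (y axis, linear) of 6 mitosis genes in each of the 4 rats of a group (points), with the group mean (line) and SD (whisker). DN rats lay below all normal rats for each of the 6, and replicate 4 of the SIN (40 mg/kg) group reached 5.08 CPM for Top2a and 5.57 CPM for Mki67.

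Ccnd1 was the most marked gene in the opposite direction. It stood at 118, 149.9, 99.1 and 153 CPM in the normal rats and at 295, 315, 337 and 216 CPM in the DN rats, so every DN rat lay above every normal rat (log2 fold change 1.17, SE 0.17, edgeR adjusted p = 0.00524). Tk1, which salvages thymidine, was 12.4, 13.8, 11.3 and 12.5 CPM in the normal and 19.7, 17.1, 13.1 and 18.8 CPM in the DN rats. DN replicate 3 lay within the normal range, and the log2 fold change of 0.46 (SE 0.15) only just passed (edgeR adjusted p = 0.0499). Of the other replication genes 0 passed by edgeR and 2 had an unadjusted p under 0.05, and the median of the 12 was 0.11, with a range from -0.53 to 0.70. Mcm2 and Mcm5, both subunits of the replicative helicase, came nearest. Mcm2 was 17.6, 17.2, 15.7 and 14.3 CPM in the normal and 29.5, 23.3, 24.8 and 14.9 CPM in the DN rats (log2 fold change 0.52, SE 0.19, edgeR adjusted p = 0.0777). Mcm5 was 2.095, 1.99, 2.502 and 2.67 CPM in the normal and 4.51, 3.08, 4.88 and 2.52 CPM in the DN rats (log2 fold change 0.70, SE 0.26, edgeR adjusted p = 0.0839). In both genes DN replicate 4 was the lowest DN rat and fell within the normal range.

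Only Top2a and Ccnd1 passed in DN over normal with each single rat left out. The number of members called was 3 without normal replicate 1 or 3, 2 without normal replicate 4 and 2 without DN replicate 2. Requiring at least 10 counts in every compared rat left 3 calls and a mitosis median of -0.19, and Top2a could not be tested there.

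**Figure D3:**
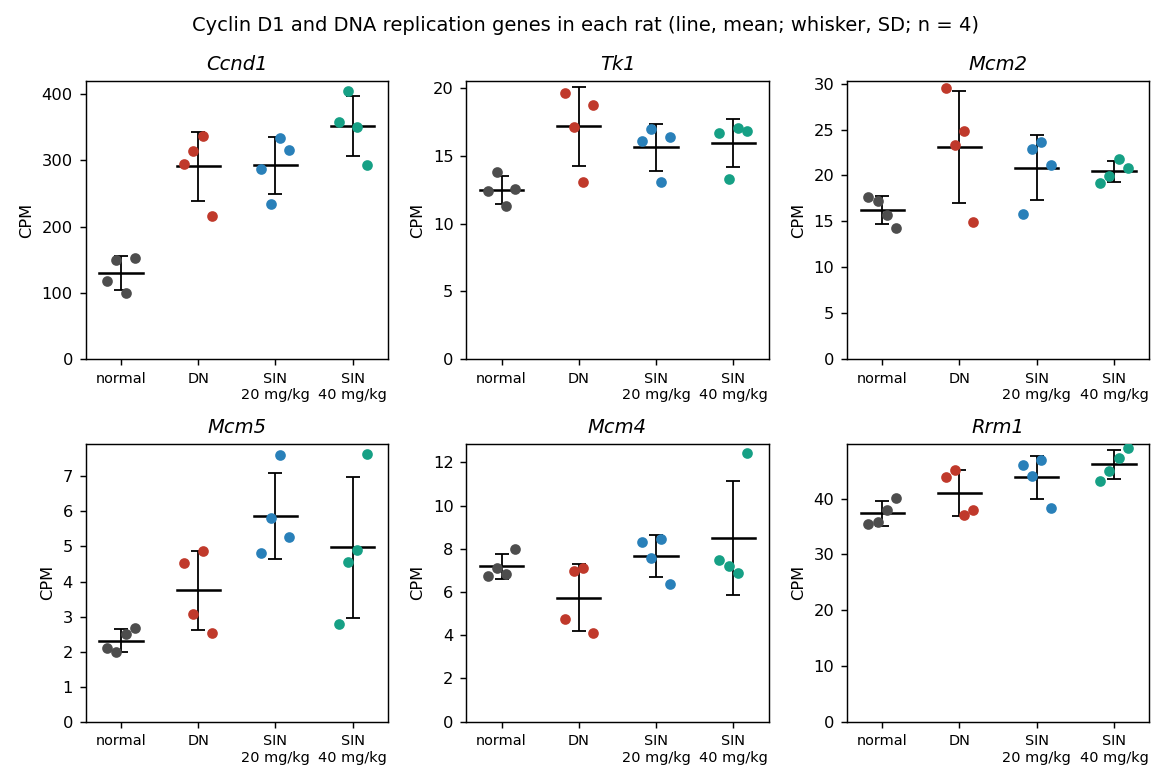
CPM (y axis, linear) of Ccnd1 and 5 replication genes in each rat (points), with the group mean (line) and SD (whisker). Ccnd1 was at least 216 CPM in every rat given STZ and at most 153 CPM in the normal rats, and Mcm5 was higher in all 8 SIN rats than in any normal rat.

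The other genes of the pathway, from lists that hold none of the 39, were tested in the same fit. Of all genes tested, as given above, 8.74% were higher and 10.8% lower, and the counts called higher in the replication list and among other cyclins and CDKs were below that share. Among 20 further mitosis genes tested, 4 fell and 1 rose, with a median of -0.55. Melk, a kinase of dividing cells, went from 15.4, 23.6, 22.04 and 22.4 CPM in the normal to 5.18, 9.61, 7.38 and 12.6 CPM in the DN rats (log2 fold change -1.26, SE 0.26, edgeR adjusted p = 0.0145). Smc2 and Smc4, the core pair of condensin, fell by 0.98 and 0.93 on the log2 scale (edgeR adjusted p = 0.032 and 0.0268), and Cdc27, a subunit of the anaphase-promoting complex, fell by 0.61 (edgeR adjusted p = 0.0317). Fzr1, an activator of that complex in G1, rose by 0.43 (edgeR adjusted p = 0.0285). Of 25 further replication genes, Cdt1 (a licensing factor, log2 fold change 0.99) and Pold1 (the catalytic subunit of polymerase delta, 0.76) rose, at an edgeR adjusted p of 0.0486 and 0.0392, and the median of the list was 0.14. Of 15 other cyclins and CDKs 1 was called, Ccnd3 (cyclin D3, log2 fold change 0.49, edgeR adjusted p = 0.047), and of 13 pocket proteins and other E2F genes none passed (0 by edgeR, 3 at an unadjusted p under 0.05, all lower).

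Of the 7 CDK inhibitors, which brake the cycle, 6 had a row and 4 were tested. Cdkn1a encodes p21, a target of p53. It stood at 10.6, 11.04, 4.79 and 7.87 CPM in the normal and 18.8, 16.8, 15.4 and 12.1 CPM in the DN rats and was higher in all DN rats (log2 fold change 0.89, SE 0.25, edgeR adjusted p = 0.0377). Cdkn1c, which encodes p57, an inhibitor found in podocytes, was 19.6, 34.9, 26.1 and 20.2 CPM in the normal and 108, 47.1, 47.9 and 35.8 CPM in the DN rats (log2 fold change 1.25, SE 0.33, edgeR adjusted p = 0.031). DN replicate 1 was more than any other rat, but the remaining DN rats also lay above the normal ones. Cdkn1b (p27) and Cdkn2c (p18) had log2 fold changes of 0.03 and -0.37 and did not pass (edgeR adjusted p = 0.85 and 0.178). Cdkn2a and Cdkn2b were below the count minimum, with Cdkn2a at 0 in every DN and SIN (20 mg/kg) rat, and Cdkn2d was not analysed here.

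Markers of other cells moved with this comparison to different degrees, and their part in it was not tested. The leukocyte markers summed to 249.2 to 562.5 CPM in the normal and 363 to 474 CPM in the DN rats, most of it from Lyz2 (means of 314 and 311 CPM). Of 12 leukocyte markers tested 8 had a negative log2 fold change, and Ptprc, the general leukocyte marker CD45, was called lower in all DN rats (-0.81, edgeR adjusted p = 0.0328). All 10 smooth muscle and fibroblast markers were counted in every rat, with a median log2 fold change of 1.04. Called higher were Tagln (1.81, edgeR adjusted p = 0.0064), in all DN rats, and Col1a1 (1.08, edgeR adjusted p = 0.0262). Pdgfra was called lower in all DN rats (-0.41, edgeR adjusted p = 0.0285). The sum of the 10 was 394 to 585 CPM in the normal rats against 461 to 1150 CPM in the DN rats. The top value was DN replicate 3, which also had the highest sum of urothelial markers (151 CPM, against 13.0 to 63.5 in the other DN and 21.5 to 62.5 in the normal rats, with Krt14 and Krt20 not counted in every rat). Red blood cell markers, of which Ahsp was not counted in every rat, summed to 403 to 933 CPM in the normal and 212 to 645 CPM in the DN rats, mostly from haemoglobin genes, and Alas2 of that list was called lower (-1.50, edgeR adjusted p = 0.0392). The sum of the 9 tubule injury markers was 534 to 861 CPM in the normal and 1014 to 1631 CPM in the DN rats, without overlap. Of the 9, 4 were called higher (Krt8, Krt18, Clu and Havcr1, the last pair with overlap between rats), and Vcam1 was called lower in all DN rats (log2 fold change -0.98, edgeR adjusted p = 0.00457). Without DN replicate 3 the number of members called was 6.

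The SIN over DN comparisons ask whether treatment moved these genes. Both use the same 4 DN rats. No member passed an adjusted p under 0.05 at either dose, by edgeR's quasi-likelihood test or by DESeq2, and the background was 0% of 15724 genes at 20 mg/kg and 0% of 15530 genes at 40 mg/kg by edgeR. Most log2 fold changes over DN were positive without passing the test, 25 of 32 at 20 mg/kg and 24 of 29 at 40 mg/kg. Of all genes tested, 7698 of 15724 and 7916 of 15530 were positive. For most of the genes the SIN and DN rats overlapped. At 20 mg/kg, 4 of 32 genes tested had an unadjusted p under 0.05, all higher, where 9.2% of all genes were higher and 6.24% lower at that threshold. The DESeq2 count was 4 as well. The 4 are not read against the share of higher genes. Hmmr, 1 of them, passed the count filter only through the SIN (20 mg/kg) group, as did Plk1 among the genes tested. Such passage favours higher values. Of 18 mitosis genes 15 had a positive log2 fold change, with a median of 0.38 against -0.007 over all genes. Over all 22 with no filter the median was 0.45. The median of the 12 replication genes was 0.13. The mitosis median was 0.18 without DN replicate 4, 0.14 without SIN (20 mg/kg) replicate 2 and 0.08 over the genes with at least 10 counts in every compared rat.

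In the SIN (20 mg/kg) group Hmmr stood at 1.07, 0.517, 0.759 and 1.03 CPM, above all DN rats (log2 fold change 1.12, SE 0.38, unadjusted p = 0.0147, edgeR adjusted p = 0.271). Bub1b, below the count minimum and not tested here, was also above all DN rats, at 0.731, 0.438, 0.405 and 0.423 CPM. Kif11 stood at 75.4, 51.9, 64.2 and 55.5 CPM, with replicate 2 just below the highest DN rat (0.64, SE 0.20, edgeR adjusted p = 0.27). Mki67 was 2.58, 1.67, 2.02 and 1.03 CPM, and its replicate 4 overlapped the DN rats (1.04, SE 0.40, edgeR adjusted p = 0.292). Top2a, the gene that fell furthest past its error in DN, was spread widely at 20 mg/kg. Its values were 1.505, 1.99, 0.861 and 0.141 CPM, so that replicate 4 lay below every DN rat and replicate 2 within the normal range (log2 fold change 1.25, SE 0.62, edgeR adjusted p = 0.354). Mcm5 was 4.82, 5.81, 7.59 and 5.27 CPM, with replicate 1 within the DN range (0.64, SE 0.25, edgeR adjusted p = 0.3). Mcm4, another helicase subunit, was 4.74, 6.98, 7.11 and 4.09 CPM in the DN and 8.299, 7.56, 8.46 and 6.35 CPM in the SIN (20 mg/kg) rats (0.41, SE 0.21, edgeR adjusted p = 0.366). Cyclin D1 was 287, 234, 333 and 316 CPM, with a log2 fold change over DN of 0.003 (SE 0.16).

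At 40 mg/kg, 3 of 29 genes tested had an unadjusted p under 0.05, all higher, where 9.9% of all genes were higher and 7.21% lower. Of these, Top2a was above the count minimum in 3 SIN (40 mg/kg) rats and 1 DN rat. The DESeq2 count at that threshold was 5. Of 15 mitosis genes 13 had a positive log2 fold change, with a median of 0.56 against 0.007 over all genes. Over all 22 with no filter the median was 0.69, and over the 10 above the count minimum in all 8 rats it was 0.40. Replicate 4 of the SIN (40 mg/kg) group stood apart in mitosis genes. Top2a was 1.16, 0.328, 1.63 and 5.08 CPM in replicates 1 to 4 (log2 fold change over DN 2.12, SE 0.70, unadjusted p = 0.0133, edgeR adjusted p = 0.215). Mki67 was 0.686, 0.938, 1.82 and 5.57 CPM and Ccnb1 0.792, 1.03, 1.12 and 1.89 CPM, against 0.797, 0.556, 0.492 and 1.05 CPM for Ccnb1 in the DN rats (log2 fold changes 1.35 and 0.74, edgeR adjusted p = 0.317 and 0.353). In each of these genes replicate 4 was the highest of the 16 rats. Kif11 was 48.7, 55.4, 55.05 and 78.2 CPM (0.60, SE 0.22, edgeR adjusted p = 0.231), and here too replicate 4 was the highest. Mcm4 was 7.497, 7.22, 6.86 and 12.4 CPM (0.57, SE 0.26, edgeR adjusted p = 0.297).

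Ccne2 (cyclin E2, which opens S phase with CDK2) was above all DN rats at 40 mg/kg. How many of all genes separated in this way was not counted. It was 1.11, 0.809, 0.895 and 0.952 CPM in the DN and 1.901, 1.17, 1.26 and 2.27 CPM in the SIN (40 mg/kg) rats (log2 fold change 0.81, SE 0.31, edgeR adjusted p = 0.245). In the normal rats it ranged from 0.290 to 2.06 CPM, wider than in either of these groups. It overlaps Ints8, a subunit of Integrator, whose own log2 fold change was 0.43 in SIN (40 mg/kg) over DN (edgeR adjusted p = 0.257) and -0.77 in DN over normal (edgeR adjusted p = 0.0172).

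Leaving out single rats changed the 40 mg/kg result. Without SIN (40 mg/kg) replicate 4 the number of members at an unadjusted p under 0.05 went from 3 to 0 and the mitosis median over DN from 0.56 to 0.18. Without DN replicate 4 that number was 5, and without SIN (40 mg/kg) replicate 1 or 2 it was 7. Replicate 4 had a leukocyte sum of 456 CPM, the highest of its group (344 to 392.1 in the others), a smooth muscle and fibroblast sum of 550 CPM (446 to 457 in the others) and a tubule injury sum of 1721 CPM (878 to 1662 in the others). Its red blood cell sum was 590.2 CPM (265 to 343 in the others) and its kidney marker sum 9873 CPM, the lowest of its group. Ptprc was 6.71, 6.47, 7.33 and 12.1 CPM in replicates 1 to 4 of this group. In SIN (20 mg/kg) over DN Ptprc had a log2 fold change of 0.65 (unadjusted p = 0.0312, edgeR adjusted p = 0.302). Of the 13 leukocyte markers tested there, 6 had a positive and 7 a negative log2 fold change, with a median of -0.04. At an unadjusted p under 0.05, 1 was higher (Ptprc) and 1 lower. In SIN (40 mg/kg) over DN, 4 of 12 were positive and 8 negative. In the SIN (20 mg/kg) rats the leukocyte, smooth muscle and fibroblast, and tubule injury sums were 358 to 453, 407 to 516 and 1126 to 2560 CPM. Over DN, 5 of the 10 smooth muscle and fibroblast markers were lower at an unadjusted p under 0.05 at each dose, and 0 were higher. The part of these markers in the mitosis values was not tested. Without DN replicate 3, the rat with the highest smooth muscle and fibroblast sum, the number of members at an unadjusted p under 0.05 was 5 at 20 mg/kg and 4 at 40 mg/kg.

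**Figure D4:**
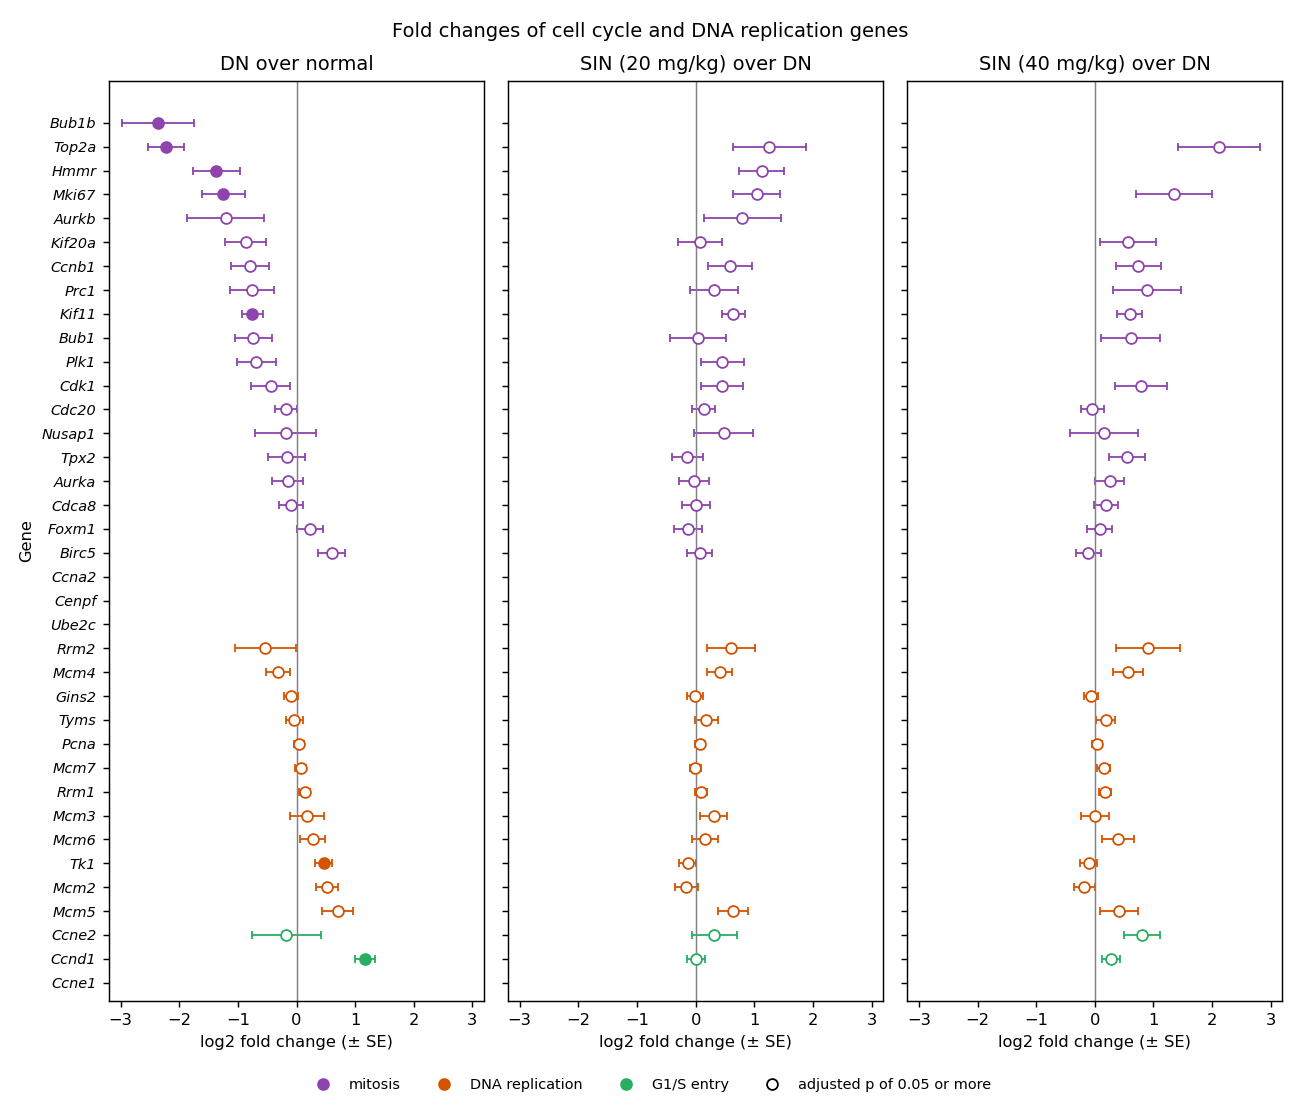
Log2 fold change (x axis, with SE) of each member (y axis) in DN over normal and in each SIN group over DN, coloured by subset, filled where the edgeR adjusted p was under 0.05 and left blank where the gene was below the count minimum. The 7 filled points all lie in DN over normal, 5 mitosis genes to the left and Ccnd1 and Tk1 to the right.

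Pathway genes gave no adjusted call over DN either, 0 by edgeR at both doses. Cdkn1a was 7.53, 13.3, 9.62 and 10.02 CPM at 20 mg/kg and 7.497, 7.74, 8.96 and 6.39 CPM at 40 mg/kg, and at 40 mg/kg every rat lay below every DN rat (log2 fold change -1.05, SE 0.17, unadjusted p = 0.000108, edgeR adjusted p = 0.148). At 20 mg/kg its log2 fold change was -0.65 (SE 0.19, edgeR adjusted p = 0.27). Cdkn1c did not move alike, with log2 fold changes of -0.40 and 0.02 at 20 and 40 mg/kg, and Cdkn1b (-0.16 and -0.09) and Cdkn2c (-0.19 and 0.17) were near 0. In the further mitosis list 6 of 20 genes at 20 mg/kg and 7 of 19 at 40 mg/kg had an unadjusted p under 0.05, all higher. Kif23, among the 6, passed the count filter only through the SIN (20 mg/kg) group. In the further replication list it was 2 of 25 at each dose, all higher, which is below the 9.2% and 9.9% of all genes that were higher at that threshold. Among other cyclins and CDKs, Wee1, the kinase that holds CDK1 back, was 11.7, 12.8, 20.3 and 11.4 CPM in the DN, 28.1, 28.8, 32.6 and 22.6 CPM in the SIN (20 mg/kg) and 28.2, 22.4, 24.6 and 24.7 CPM in the SIN (40 mg/kg) rats. All 8 SIN rats lay above all DN rats (log2 fold changes 0.99 and 0.83, edgeR adjusted p = 0.27 and 0.175). Of the 15 tested in that list, 1 was higher and 2 were lower at an unadjusted p under 0.05 at 20 mg/kg. At 40 mg/kg 2 were higher and 0 lower. Of all genes, 6.24% and 7.21% were lower at 20 and 40 mg/kg. Of 13 pocket proteins and other E2F genes, 1 was higher at 20 mg/kg and 4 at 40 mg/kg, and 0 were lower.

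Between the doses no difference was called. In SIN (40 mg/kg) over SIN (20 mg/kg), 0 of 33 members passed by edgeR or DESeq2 and 0 had an unadjusted p under 0.05 in either, where 0.00639% and 4.98% of 15657 genes did so by edgeR. The members with the smallest p were Tpx2 (a spindle assembly factor, log2 fold change 0.68, 95% interval -0.05 to 1.41), Ccnd1 (0.26, -0.04 to 0.56) and Mcm3 (-0.31, -0.73 to 0.12). Tpx2 was 1.98, 2.31, 1.82 and 1.27 CPM at 20 mg/kg and 1.85, 3.56, 2.1 and 4.404 CPM at 40 mg/kg, and Ccnd1 was 358, 404, 350.5 and 293 CPM at 40 mg/kg. Mcm3, a helicase subunit, was 3.83, 3.74, 4.91 and 3.76 CPM at 20 mg/kg and 2.85, 2.95, 3.69 and 3.68 CPM at 40 mg/kg, so that all rats on the higher dose lay below those on the lower. Aurka (Aurora A, a spindle pole kinase) was 2.41, 3.46, 2.99 and 2.399 CPM at 20 mg/kg and 3.48, 2.67, 3.59 and 3.92 CPM at 40 mg/kg. Cdc20 was 5.29, 6.403, 5.57 and 4.99 CPM at 20 mg/kg and 5.07, 4.31, 4.71 and 5.47 CPM at 40 mg/kg, and Ccne2 was 1.68, 0.676, 1.67 and 0.706 CPM at 20 mg/kg. The values of these genes overlapped between the doses except for Mcm3. For Top2a the interval ran from -0.92 to 2.61, which leaves room for a large difference either way. The median of the 18 mitosis genes was 0.26, and it was -0.18 without replicate 4 of the SIN (40 mg/kg) group and 0.46 and 0.47 without its replicates 1 and 2.

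Set against the normal group, cyclin D1 was higher in the treated kidneys at both doses and Mcm5 passed at 20 mg/kg. At 20 mg/kg, 2 of 34 genes tested were called, both higher (background 2.77% higher and 3.58% lower of 15877 genes). They were Ccnd1 (log2 fold change 1.17, SE 0.16, edgeR adjusted p = 0.00332) and Mcm5 (1.34, SE 0.21, edgeR adjusted p = 0.00581). At 40 mg/kg, 1 of 35 was called (background 2.28% higher and 3.69% lower of 15735 genes), Ccnd1 (1.43, SE 0.16, edgeR adjusted p = 0.000866). Mcm5 was 2.798, 4.55, 4.899 and 7.65 CPM at 40 mg/kg, above all normal rats, at a log2 fold change of 1.10 (SE 0.29, edgeR adjusted p = 0.0539). Without SIN (20 mg/kg) replicate 1 the number called was 4, and without SIN (40 mg/kg) replicate 1 it was 2. No mitosis gene was called against normal at either dose by edgeR, and those at an unadjusted p under 0.05 were 1 of 20 at 20 mg/kg, Birc5, and 0 of 21 at 40 mg/kg.

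Birc5 was 3.83, 3.06, 2.73 and 3.15 CPM at 20 mg/kg and above all normal rats (log2 fold change 0.66, SE 0.23, edgeR adjusted p = 0.127). Tk1 was 16.1, 17.02, 13.1 and 16.4 CPM at 20 mg/kg and 16.7, 13.3, 17.1 and 16.8 CPM at 40 mg/kg (0.32 and 0.35, edgeR adjusted p = 0.175 and 0.129). Mcm2 was 15.8, 22.8, 23.6 and 21.1 CPM at 20 mg/kg and 19.2, 19.97, 21.8 and 20.8 CPM at 40 mg/kg, where all 4 rats exceeded the normal rats (0.36 and 0.33, edgeR adjusted p = 0.187 and 0.101). For both genes the mean of every group given STZ exceeded that of the normal group. Rrm1 was 35.4, 35.9, 37.9 and 40.2 CPM in the normal, 45.9, 43.99, 46.99 and 38.3 CPM in the SIN (20 mg/kg) and 43.1, 45.01, 47.2 and 49.1 CPM in the SIN (40 mg/kg) rats. At 40 mg/kg all its values exceeded those of the normal rats (0.30, SE 0.08, edgeR adjusted p = 0.0593). Mcm6, also of the helicase, was 4.097, 5.91, 4.57 and 4.85 CPM in the normal and 4.91, 6.09, 9.38 and 10.4 CPM in the SIN (40 mg/kg) rats, with overlap (0.66, SE 0.25, edgeR adjusted p = 0.146). These replication genes had changes of small size, and 11 of 12 replication genes were positive against normal at each dose, with medians of 0.19 and 0.27 (0.14 at 40 mg/kg without replicate 4). The 2 comparisons share the 4 normal rats. In the pathway lists Pole (the catalytic subunit of polymerase epsilon), Cdt1 and Wee1 rose and Melk fell against normal at both doses. At 20 and 40 mg/kg their log2 fold changes were 1.10 and 1.39 for Pole, 1.13 and 1.36 for Cdt1, 1.20 and 1.04 for Wee1 and -1.15 and -1.19 for Melk, at an edgeR adjusted p of 0.0473 or less. Cdkn1c rose at 40 mg/kg (1.27, SE 0.22, edgeR adjusted p = 0.0086) and was 0.85 at 20 mg/kg (edgeR adjusted p = 0.0803), while Cdkn1a had log2 fold changes of 0.24 and -0.17 that did not pass (edgeR adjusted p = 0.676 and 0.736). At 20 mg/kg Myc, a driver of growth, rose by 0.98 and Cdc25a, a phosphatase that activates CDKs, fell by 0.61 on the log2 scale (edgeR adjusted p = 0.0232 and 0.00829). Cdkn1b and Cdkn2c did not pass in either comparison, with log2 fold changes from -0.56 to -0.07.

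Seen rat by rat, the subsets did not move as one. The mean log2 CPM of the 22 mitosis genes was 0.59 to 1.06 in the normal rats and -0.26 to 0.14 in the DN rats. It was 0.12 to 0.65 in the SIN (20 mg/kg) and 0.08 to 1.45 in the SIN (40 mg/kg) rats, so the SIN groups spanned the gap between the other groups. The mean of the 12 replication genes was 2.94 to 3.22 in the normal and 3.01 to 3.34 in the DN rats, which overlapped, and 3.30 to 3.47 and 3.196 to 3.68 in the SIN groups. SIN (40 mg/kg) replicate 4 had the top value of both. Without Kif11, the mitosis means of the normal rats (0.33 to 0.81) and the DN rats (-0.53 to -0.10) were still separate. These means carry no test, since the genes were chosen with results of these data in view.

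**Figure D5:**
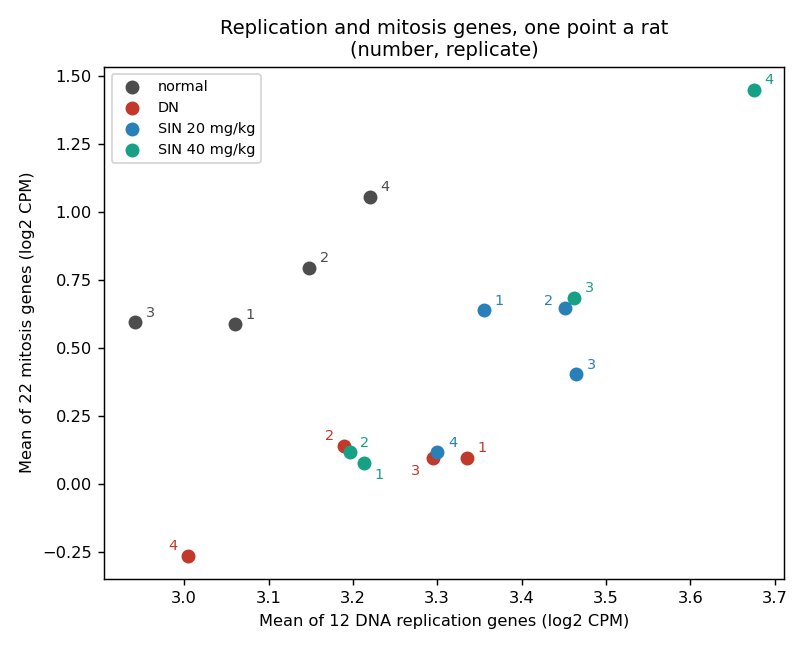
Mean log2 CPM of the 22 mitosis genes (y axis) against that of the 12 replication genes (x axis), 1 point a rat with its replicate number, coloured by group. The DN rats reach at most 0.14 on the y axis and the normal rats at least 0.59, while on the x axis the normal (2.94 to 3.22) and DN rats (3.01 to 3.34) overlap and the SIN (20 mg/kg) rats (3.30 to 3.47) lie above the normal ones.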

How the data were processed

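From renal tissue the authors took polyadenylated RNA for Illumina sequencing, used SeqPrep and Sickle for trimming, and TopHat for alignment. The submitters' processing notes also name Bowtie, RSEM and edgeR without a role. The authors deposited estimated counts per gene, and 74.3% of the nonzero values were whole numbers. All values were rounded. Of the other columns, 4 libraries named in no record and 5 mean columns were not used. The identifiers that open the sample descriptions run in order within groups, and no source used here says whether they mark a batch.

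Groups were compared in 6 separate fits with edgeR 4.0.16 (quasi-likelihood test, two-sided, TMM, filterByExpr with a minimum count of 10 over the 2 groups compared). Benjamini-Hochberg adjustment covered every gene tested, and a gene was called at an adjusted p under 0.05. Log2 CPM used a prior count of 2. Deviations of same-numbered rats from their group means correlated at -0.238 to 0.244 between groups. No pairing is stated, such correlations cannot exclude one, and the main fits used none.

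The members and gene lists were chosen with earlier results of these data known. Values of each rat are given for members called in a comparison, or for the 6 with the smallest p where fewer were called, and pathway genes are named where called. Wee1 and Kif23 in the SIN over DN comparisons, Ide and Ints8 lie outside that rule and were named after their values were seen. Alternatives were DESeq2 1.42.0, RLE normalization, a block for the replicate number, a single fit of the 16 rats, leaving out each rat, no filter, and a minimum of 10 counts in each rat compared. The fits were tested on simulated data. R 4.3.3 was used. Coordinates are RefSeq's for GRCr8, and were used for promoters and overlaps only. Results of some genes in the lists are not reported here.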

Additional observations from a re-analysis of the deposited data

Results flagged for a closer look

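Among 76 sets of 4 rats (19 named members in 4 groups), 6 held a rat whose distance from the nearest other exceeded Dixon's 95% critical value. Chance alone gives such a rat in about 1 set in 20. Mitosis genes accounted for 3 of them. Mki67 was 0.398 CPM in DN replicate 1 against 1.03 to 1.06 CPM in the rest of that group, and this rat was on the low side of a gene that was called lower in the DN group. Hmmr was 1.69 CPM in normal replicate 4 against 0.726 to 0.792 CPM in the others. Bub1b was 0.731 CPM in SIN (20 mg/kg) replicate 1 against 0.405 to 0.437 CPM.

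The other 3 were replication genes. Mcm4 was 12.4 CPM in SIN (40 mg/kg) replicate 4, the rat with the highest mitosis values, against 6.86 to 7.50 CPM in the others. Mcm3 was 4.91 CPM in SIN (20 mg/kg) replicate 3 against 3.74 to 3.83 CPM. Tk1 was 13.3 CPM in SIN (40 mg/kg) replicate 2 against 16.7 to 17.1 CPM.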

How the results depend on the processing

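In DN over normal, the 7 members called became 3 with at least 10 counts in every compared rat and 2 with the replicate block, 5 with no filter, 8 with DESeq2, 9 with a single fit over all 16 rats, and 2 to 7 with a rat left out. In SIN (40 mg/kg) over normal, the 1 member called became 3 with DESeq2 and 2 with at least 10 counts in every rat, with all 16 rats in one fit and with the replicate block, and 1 to 2 with a rat left out, the added genes being Mcm5 and, with DESeq2, Rrm1. In SIN (20 mg/kg) over normal, the 2 called became 2 to 4 with a rat left out. The calls of Ccnd1 and Top2a in DN over normal held in every alternative that could test them. Fold changes of single genes were followed for 37 pairs of gene and comparison, from the 19 named members, and none turned direction. Those of the other genes were not followed in this way. The cause of the other changes in the number called was not tested. The replicate numbers carry no stated pairing. With the block, 0 members were called in the SIN over DN comparisons, as without it, and the number of rats that correlated best with their own number was 4 of 8 in SIN (40 mg/kg) over normal, where correlations reached 0.244, 1 of 8 in SIN (20 mg/kg) over normal and 0 of 8 in the other comparisons. Depth limits the mitosis genes, of which up to 7 of 22 fell below the count minimum in a comparison.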
